A study of Homo sapiens with 6 samples.

Results

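The genes described here are the 37 aminoacyl-tRNA synthetase genes and 3 genes of non-catalytic synthetase complex proteins that were found by symbol in the deposited tables, 40 of 16305 genes in all. They comprised 21 cytosolic synthetases, 16 mitochondrial synthetases (symbols ending in 2, apart from the cytosolic TARSL2), and AIMP1, AIMP2 and EEF1E1. The rule reads symbols and no measured value, but the set was proposed with earlier results of these data known. All 40 had passed the filter on low read counts that the authors applied. RNA was sequenced from Huh7-R cells (Huh7SR in the labels), a pool of cells made resistant to sorafenib by long exposure of the hepatocellular carcinoma line Huh7. All 6 samples were of this pool, which was grown with sorafenib and taken off it some days before the experiments. In 3 samples the cells were given fostamatinib, a small-molecule kinase inhibitor, at 2 µM for 24 h, and in the other 3 they were given the vehicle DMSO for the same time. The labels write the figure of 2 µM for DMSO as well, and they call the treatments triplicate without saying whether each came from a separate culture. The p-values therefore measure the spread between these samples, which may be technical. Those of single genes also draw on a variance trend shared across all 16305 genes. The comparison asks how much mRNA of each gene was present after fostamatinib relative to the vehicle.

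Aminoacyl-tRNA synthetases join each amino acid to its matching tRNA, which is the step that gives the genetic code its meaning. Cytosolic and mitochondrial protein synthesis use separate sets of these enzymes, nearly all from separate nuclear genes, while glycyl-tRNA synthetase (GARS) and lysyl-tRNA synthetase (KARS) serve both compartments from single genes. Several cytosolic enzymes sit together in the multisynthetase complex, held by the proteins AIMP1, AIMP2 and EEF1E1 (also called AIMP3). Many cytosolic synthetase genes are known targets of ATF4, the transcription factor that is made when cells sense a lack of amino acids.

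Each sample held 13303451 to 15272737 reads over the genes of the tables. Levels are given as CPM, the reads of a gene relative to the library size after TMM scaling, and changes as log2 fold changes with their standard error (SE) from limma. Across all genes 47.8% were called changed at an adjusted p-value under 0.05, of which a similar number fell (24.5% of all genes) and rose (23.3%), and the median log2 fold change of all genes was 0.0015. All 10 hepatocyte markers looked up had values in the tables, with a summed level of 5093 to 5425 CPM with DMSO and 6908 to 7309 CPM with fostamatinib. Of the 5 leukocyte markers only LYZ had values (9.30 to 10.8 CPM against 9.31 to 11.2 CPM), and of the 4 endothelial markers only PECAM1 (6.10 to 6.93 against 8.72 to 9.89 CPM). Of the 5 fibroblast markers 4 had values, with a summed level of 148.8 to 153.6 CPM against 192.6 to 199.5 CPM. Most of that sum came from COL1A2, with a mean of 143.1 CPM against 184.5 CPM. The part of these markers in the changes of the synthetase genes was not tested. All 6 samples were of 1 cultured line, so that these markers do not count other cell types. In such bulk RNA fewer cells that express a gene and less of its RNA per cell cannot be told apart.

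After fostamatinib the mRNA of nearly the whole cytosolic set was lower, and that of a smaller share of the mitochondrial set. Of the 21 cytosolic genes 19 fell, QARS rose and RARS was not called, where 24.5% of all genes fell. Of the 16 mitochondrial genes 6 fell, none rose in limma or limma-voom (1, VARS2, at an unadjusted p-value under 0.05), and 10 were not called. EEF1E1 and AIMP2 fell and AIMP1 was not called. The median log2 fold change was -0.69 for the cytosolic genes, a level of 61.9% of DMSO, and -0.06 for the mitochondrial genes, 95.7% of DMSO. In 28 of the 40 genes every fostamatinib sample lay below every DMSO sample, which was so for 27.4% of all genes, and in 1 gene (QARS) every fostamatinib sample lay above. The summed level of the cytosolic genes was 4661 to 4747 CPM with DMSO against 3002 to 3054 CPM with fostamatinib, so that it fell to 64.2%. The summed level of the mitochondrial genes was 670 to 702 CPM against 636 to 664 CPM, 94.6% of DMSO.

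**Figure D1:**
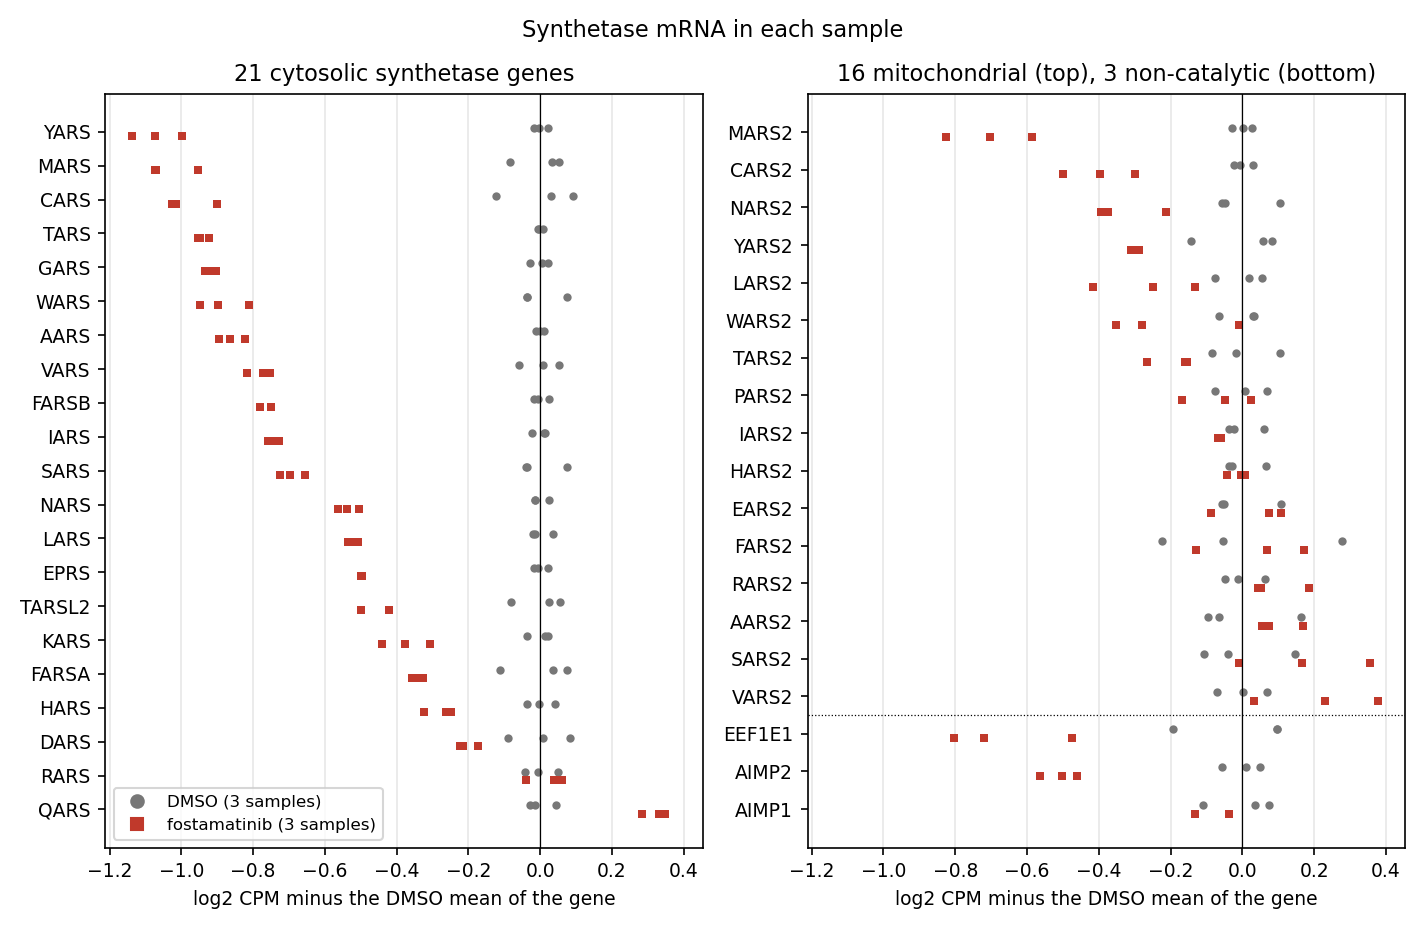
Level of each synthetase gene in each sample, as log2 CPM minus the mean of the gene's 3 DMSO samples (x axis), with 1 row per gene ordered by its change; grey circles are DMSO samples and red squares fostamatinib samples. In the left panel (cytosolic) the squares lie left of the circles in 19 of 21 genes, whereas in the right panel (mitochondrial above the dotted line, non-catalytic complex genes below it) they do so in 7 of 16 mitochondrial genes.

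Of the 8 cytosolic genes with the largest falls, 7 encode enzymes outside the multisynthetase complex, and MARS is part of it. YARS, the tyrosyl-tRNA synthetase (GRCh37 chr1:33240838-33283632, minus strand), had 206.2, 209.8 and 204.2 CPM with the vehicle against 94.0, 98.3 and 103.5 CPM with fostamatinib, a log2 fold change of -1.07 (SE 0.044, adjusted p = 1.21e-20). MARS, the methionyl enzyme, which also charges the initiator tRNA (chr12:57869228-57911352, plus strand), had 360.5, 355.9 and 328.1 CPM against 179.7, 165.6 and 165.2 CPM (log2 fold change -1.03, SE 0.043, adjusted p = 1.10e-20). These 2 were the only members that fell more than 2-fold, and in both the highest treated sample was far below the lowest vehicle sample. CARS, the cysteinyl enzyme, had 148.9, 142.8 and 128.5 CPM against 74.9, 68.6 and 69.2 CPM (log2 fold change -0.98, SE 0.053, adjusted p = 1.63e-17).

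TARS, the threonyl enzyme, was among the least variable members, at 260.3, 257.8 and 258.3 CPM with DMSO and 136.5, 133.7 and 134.2 CPM with fostamatinib (log2 fold change -0.94, SE 0.040, adjusted p = 2.05e-20). GARS, the glycyl enzyme of both compartments (chr7:30620149-30673649, plus strand), had 476.9, 481.7 and 466.0 CPM against 248.4, 253.7 and 251.9 CPM (log2 fold change -0.92, SE 0.036, adjusted p = 2.50e-21). WARS, the tryptophanyl enzyme, had 61.1, 66.0 and 61.2 CPM against 35.7, 33.6 and 32.5 CPM (log2 fold change -0.89, SE 0.061). These genes spanned a wide range of levels and lost a similar part of their mRNA, with levels of 52.1%, 52.9% and 54.1% of DMSO. AARS, the alanyl enzyme and the most abundant member per transcript length in the DMSO samples, had 690.3, 695.2 and 684.5 CPM against 389.8, 371.2 and 378.9 CPM (log2 fold change -0.86, SE 0.035, adjusted p = 4.42e-21). VARS, the valyl enzyme, had 190.9, 197.0 and 182.4 CPM against 111.3, 107.9 and 112.8 CPM (log2 fold change -0.78, SE 0.044, adjusted p = 5.49e-17). In each of these genes the spread within a group was a small part of the distance between the groups.

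The stretch of promoter below is shown for the members in which the core of the C/EBP-ATF response element was found, because this is the sequence through which ATF4 acts together with C/EBP proteins and because the cytosolic members moved together. RefSeq promoters, from 250 bases before to 50 bases after the first transcribed base, were at hand for 33 of the 40 genes, and DARS, AARS2, LARS, YARS, VARS2, TARSL2 and VARS are only named. The core was searched as TGATGNAA on both strands, and the E-box CACGTG likewise. The core was found in 6 of 16 cytosolic promoters, in 1 of 14 mitochondrial promoters and in none of the 3 promoters of AIMP1, AIMP2 and EEF1E1, whereas 3.62% of all 35116 promoters of the same length in the table held it. Each stretch below is 30 bases on the strand of the gene, 5′ to 3′, with the core in capitals (TTGCATCA is TGATGCAA read on the opposite strand), and its place was found by exact match to GRCh37, where each stretch occurred once.
AARS, chr16:70323578-70323607, minus strand: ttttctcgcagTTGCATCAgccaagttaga
CARS, chr11:3078637-3078666, minus strand: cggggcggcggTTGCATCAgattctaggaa
IARS, chr9:95055974-95056003, minus strand: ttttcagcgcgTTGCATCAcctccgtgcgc
MARS, chr12:57881836-57881865, plus strand: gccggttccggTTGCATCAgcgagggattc
NARS, chr18:55289036-55289065, minus strand: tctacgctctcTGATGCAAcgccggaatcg
TARS, chr5:33441062-33441091, plus strand: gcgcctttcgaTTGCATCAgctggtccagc
YARS2, chr12:32909010-32909039, minus strand: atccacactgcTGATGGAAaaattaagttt

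All 6 cytosolic matches had the exact core TGATGCAA, which 0.866% of all promoters held, and in 5 of them it was read on the strand opposite to the gene. That the exact core was looked at separately was decided after the matches were seen. The core began 2 bases before the first transcribed base in CARS, 4 before it in MARS, 13 before it in IARS, 187 before it in AARS and 197 before it in YARS2, and it lay after that base in TARS and NARS, by 2 and 14 bases. These distances are from the RefSeq start of each gene, which differs from the outermost GENCODE start that bounds the gene spans given here, and all stretches but that of YARS2 lie inside those spans. The median log2 fold change of the 6 cytosolic genes with the core was -0.90 (53.6% of DMSO), with a range of -1.03 to -0.54. Among the 10 with a promoter at hand that lacked these letters it was -0.44 (73.9% of DMSO), with a range of -0.92 to 0.32. The ranges overlapped, and cytosolic genes without a promoter at hand, such as YARS and VARS, are in neither group. Neither this difference nor a part of ATF4 in these changes was tested. GARS and WARS, both among the largest falls, were in the second group, and NARS, with a log2 fold change of -0.54, in the first. The E-box was found in the promoters of IARS, CARS2, EARS2 and MARS2 and in 7.26% of all promoters, and it did not overlap the core in IARS. A match is a description of letters in this window, not of a bound site.

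Among the 13 cytosolic enzymes outside the multisynthetase complex all 13 fell, with a median log2 fold change of -0.78. The 2 subunits of phenylalanyl-tRNA synthetase, which work as 1 enzyme, fell unequally. FARSB, which encodes the beta subunit, had 57.6, 59.3 and 58.0 CPM against 34.6, 34.6 and 33.9 CPM (log2 fold change -0.76, SE 0.058), while FARSA, for the alpha subunit, had 69.3, 71.2 and 62.5 CPM against 52.7, 53.3 and 53.8 CPM (log2 fold change -0.34, SE 0.056). The difference between the 2 changes was not tested. SARS (seryl) had a log2 fold change of -0.69, NARS (asparaginyl) of -0.54 and HARS (histidyl) of -0.28, with adjusted p-values of 1.83e-13, 4.55e-14 and 3.30e-05. TARSL2, a threonyl enzyme encoded apart from TARS and the lowest cytosolic member, had 16.7, 15.2 and 16.4 CPM against 12.0, 11.4 and 12.0 CPM (log2 fold change -0.45, SE 0.095, adjusted p = 1.69e-04).

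The 8 synthetases of the multisynthetase complex spread more widely, from the fall of MARS to the rise of QARS, and their median log2 fold change was -0.44. IARS, the isoleucyl enzyme, had 443.1, 431.9 and 442.6 CPM with DMSO and 259.5, 265.4 and 261.9 CPM with fostamatinib (log2 fold change -0.74, SE 0.036, adjusted p = 1.00e-18). LARS (leucyl) and EPRS, a single protein that charges both glutamate and proline, had log2 fold changes of -0.52 (SE 0.043) and -0.50 (SE 0.036). EPRS had 271.1, 271.3 and 271.1 CPM in the fostamatinib samples, all far below its 378.6 to 388.9 CPM in the DMSO samples. KARS, the lysyl enzyme of both compartments (chr16:75661372-75682541, minus strand), had 307.1, 305.0 and 294.9 CPM against 244.3, 222.7 and 232.8 CPM, a fall to 77.1% of DMSO (log2 fold change -0.37, SE 0.040, adjusted p = 7.97e-10). DARS, the aspartyl enzyme, had the smallest called fall of the cytosolic set, with 148.9, 159.3 and 167.7 CPM against 136.5, 140.6 and 135.8 CPM (log2 fold change -0.20, SE 0.045, adjusted p = 3.09e-04). The treated samples of DARS lay just under the lowest vehicle sample.

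QARS and RARS went apart from the rest of the cytosolic set. QARS, the glutaminyl enzyme (chr3:49133365-49142563, minus strand), was higher in every fostamatinib sample, at 204.0, 206.2 and 197.4 CPM against 160.5, 167.1 and 159.0 CPM (log2 fold change 0.32, SE 0.041, adjusted p = 4.45e-08). It was the only one of the 40 members called higher, where 23.3% of all genes rose. RARS, the arginyl enzyme (chr5:167913456-167946306, plus strand), had 129.8, 132.8 and 138.2 CPM with DMSO and 139.4, 137.3 and 130.0 CPM with fostamatinib. Its groups overlapped, and the 95% interval of its log2 fold change ran from -0.07 to 0.11 (adjusted p = 0.729), which leaves out a fall of the size seen in DARS.

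The non-catalytic genes of the complex also differed from each other. EEF1E1 had 13.1, 10.7 and 13.1 CPM against 7.02, 8.80 and 7.43 CPM (log2 fold change -0.67, SE 0.119, adjusted p = 1.56e-05). AIMP2, a scaffold of the complex, had 50.8, 49.4 and 47.3 CPM against 34.7, 35.7 and 33.2 CPM (log2 fold change -0.51, SE 0.062, adjusted p = 1.28e-08). AIMP1, which binds tRNA for the complex, had 55.0, 60.7 and 62.5 CPM against 54.1, 57.8 and 54.1 CPM, and its groups overlapped (log2 fold change -0.10, SE 0.058, adjusted p = 0.158). Without DMSO replicate 1 AIMP1 was called lower, with a log2 fold change of -0.15 and an adjusted p-value of 0.0492. Over all 11 genes of the complex 8 fell, QARS rose and RARS and AIMP1 were not called, and the median log2 fold change was -0.50. A split by the structural class of the catalytic domain, counted over the cytosolic enzymes, gave 8 of 10 lower in class I, which holds QARS and RARS, and 11 of 11 lower in class II, with median log2 fold changes of -0.76 and -0.54. EPRS, which charges both glutamate and proline, was counted in class I only.

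The mitochondrial genes moved less and were measured with fewer reads. MARS2, the mitochondrial methionyl enzyme (chr2:198570093-198573119, plus strand), was the exception, at 12.8, 13.3 and 13.1 CPM with DMSO and 7.38, 8.03 and 8.72 CPM with fostamatinib (log2 fold change -0.70, SE 0.110, adjusted p = 1.60e-06). CARS2 (cysteinyl) had 47.7, 47.1 and 48.9 CPM against 36.4, 39.0 and 33.8 CPM (log2 fold change -0.40, SE 0.063, adjusted p = 2.15e-06). NARS2 (asparaginyl) had 16.4, 18.3 and 16.5 CPM against 13.1, 14.7 and 12.9 CPM (log2 fold change -0.33, SE 0.093, adjusted p = 0.00383). The methionyl and cysteinyl enzymes were thus the most reduced of the mitochondrial set, and MARS and CARS were among the most reduced cytosolic genes. Such a parallel did not hold for every amino acid. AARS, WARS and VARS were also among the largest cytosolic falls, but AARS2, WARS2 and VARS2 were not called. For YARS and TARS, also among the largest falls, the mitochondrial counterparts were called lower. YARS2 (tyrosyl) had 28.1, 32.9 and 32.3 CPM against 25.41, 25.29 and 25.01 CPM (log2 fold change -0.30, SE 0.073, adjusted p = 9.69e-04). LARS2 (leucyl) and TARS2 (threonyl) had log2 fold changes of -0.27 (SE 0.083) and -0.19 (SE 0.063), with adjusted p-values of 0.00805 and 0.011. Both calls were lost without fostamatinib replicate 3 (adjusted p of 0.0873 and 0.0773), and that of TARS2 also without DMSO replicate 2 (adjusted p = 0.091).

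The other 10 mitochondrial genes were not called, and in 9 of them the groups overlapped. IARS2, the isoleucyl enzyme and the most abundant of the set, had 241.5, 243.6 and 258.5 CPM against 236.2, 237.9 and 237.6 CPM. Its treated samples all lay below its vehicle samples, but by less than the spread of the latter (log2 fold change -0.06, SE 0.039, adjusted p = 0.193). WARS2 (tryptophanyl) had 11.4, 12.2 and 12.2 CPM against 11.9, 9.37 and 9.85 CPM, and it was called lower only without fostamatinib replicate 1, with a log2 fold change of -0.32 in place of -0.21 (adjusted p of 0.0298 in place of 0.111). PARS2 (prolyl) had 15.6, 14.8 and 16.3 CPM against 15.8, 15.1 and 13.9 CPM. HARS2 (histidyl) had 55.2, 55.5 and 59.3 CPM against 57.0, 56.5 and 55.0 CPM. EARS2 (glutamyl) had 23.4, 23.3 and 26.1 CPM against 25.6, 26.1 and 22.8 CPM. In these 3 genes no sample of either group stood apart.

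FARS2 (phenylalanyl) had 9.11, 7.24 and 6.43 CPM with DMSO and 6.87, 8.45 and 7.89 CPM with fostamatinib, the widest relative spread among the DMSO samples of any member. The 4 mitochondrial genes with the highest log2 fold changes were VARS2, SARS2, AARS2 and RARS2. VARS2 (valyl) had 13.03, 12.42 and 11.81 CPM against 12.7, 14.6 and 16.1 CPM (log2 fold change 0.21, SE 0.102, 95% interval 0.0065 to 0.42, adjusted p = 0.0835). SARS2 (seryl), the lowest member of all, had 3.81, 3.64 and 4.34 CPM against 4.40, 3.89 and 5.02 CPM, which came from 52 to 66 reads per sample (log2 fold change 0.17, SE 0.170). At this depth only a large change of SARS2 could have been detected, since its 95% interval ran from -0.17 to 0.52. AARS2 (alanyl) had 25.7, 30.8 and 26.3 CPM against 29.0, 30.9 and 28.6 CPM (log2 fold change 0.10, SE 0.075). RARS2 (arginyl) had 96.3, 98.8 and 104.1 CPM against 103.3, 113.5 and 102.7 CPM (log2 fold change 0.09, SE 0.049, adjusted p = 0.122). Without fostamatinib replicate 1 VARS2 was called higher (log2 fold change 0.30, adjusted p = 0.024), and without DMSO replicate 3 RARS2 was (log2 fold change 0.12, adjusted p = 0.0373).

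The cytosolic and mitochondrial enzymes of the same amino acid were then set against each other within each sample, which removes the library size from the comparison. Of 17 such pairs (EPRS and FARS2 each entered 2 of them), the log2 ratio of the cytosolic to the mitochondrial gene was lower in every fostamatinib sample than in every DMSO sample in 15. It overlapped in the other 2, and in no pair was it higher without overlap. With 3 samples against 3, a two-sided exact permutation test cannot give a p-value below 0.10, and each of the 15 pairs reached that value (0.113 after adjustment over the 17 pairs), so none passed a threshold of 0.05. The change of the log2 ratio ran from -0.99 to -0.07, with a median of -0.58.

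The largest changes were those of VARS with VARS2 (-0.99, SE 0.103) and AARS with AARS2 (-0.96, SE 0.093), which did not differ beyond their errors. The sequence of VARS2 is shared with another annotated transcript, so that its values may be uncertain. VARS and VARS2 had log2 ratios of 3.87, 3.99 and 3.95 with DMSO against 3.13, 2.89 and 2.81 with fostamatinib. AARS and AARS2 had 4.75, 4.5 and 4.7 against 3.75, 3.59 and 3.73. For IARS and IARS2 the ratio was 0.88, 0.83 and 0.78 against 0.14, 0.16 and 0.14, so that the mRNA of the cytosolic gene came close to that of the mitochondrial gene in CPM. The methionyl pair changed less than most, at 4.81, 4.74 and 4.65 against 4.61, 4.37 and 4.24, since both of its genes fell. RARS and RARS2 had ratios of 0.43, 0.43 and 0.41 against 0.43, 0.28 and 0.34 (exact permutation p = 0.4), and FARSA and FARS2 overlapped at 1 sample (exact permutation p = 0.2).

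**Figure D2:**
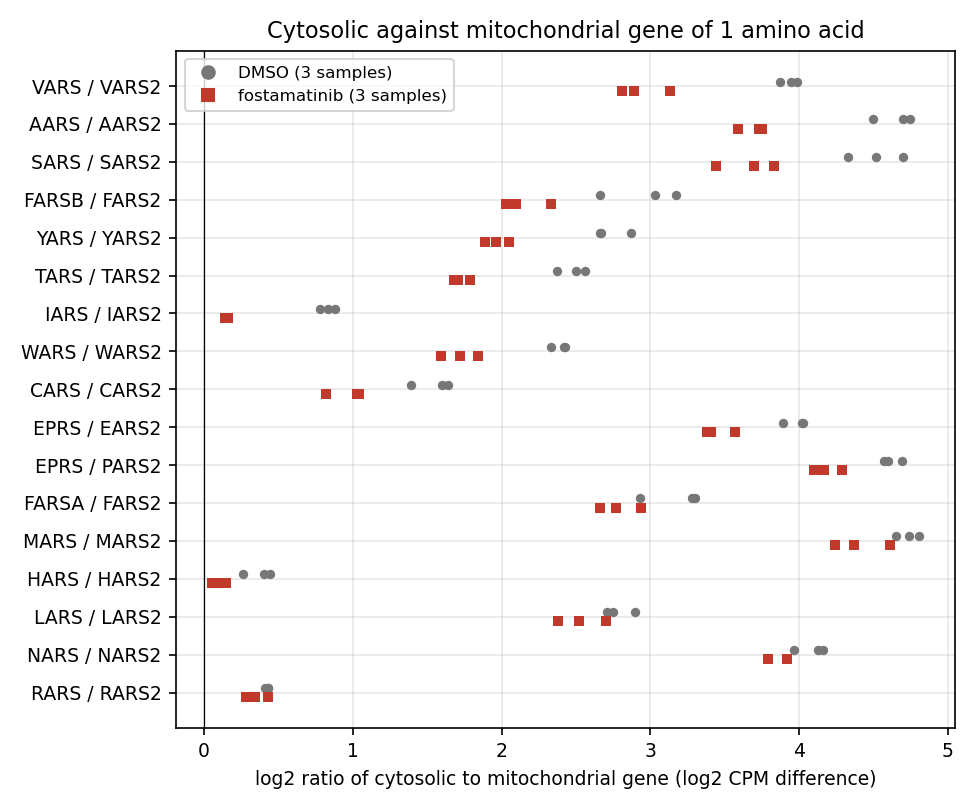
Log2 ratio of the cytosolic to the mitochondrial gene of the same amino acid (x axis, difference of log2 CPM) in each sample for 17 pairs, ordered by the change; grey circles are DMSO samples and red squares fostamatinib samples. The squares lie left of the circles in 15 pairs, and the groups overlap for RARS with RARS2 and for FARSA with FARS2.

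To compare genes with each other, the level was divided by the length of the canonical transcript (CPM per kb). Whether this was the form expressed was not checked, so that the order of genes depends on the annotation. FARSB, with a length of 6761 bases, had 8.62 CPM per kb with DMSO. FARSA, with 1811 bases, had 37.4 CPM per kb. In the DMSO samples the median level was 63.0 CPM per kb for the cytosolic genes, with a range of 4.63 (TARSL2) to 200.8 (AARS), and 6.18 CPM per kb for the mitochondrial genes, with a range of 2.04 (SARS2) to 70.2 (IARS2). AARS with 200.8 ± 1.56 and GARS with 194.8 ± 3.30 CPM per kb (SD, n = 3) led the order, followed by KARS (151.8 ± 3.27), MARS (124.5 ± 6.27) and NARS (104.7 ± 1.66). IARS (98.0 ± 1.42) and TARS (96.9 ± 0.49) did not differ beyond their spread, nor did CARS (51.2 ± 3.84) and DARS (51.2 ± 3.05). IARS2 was the only mitochondrial gene among the 10 highest. With fostamatinib KARS (117.2 ± 5.42), AARS (110.6 ± 2.72) and GARS (103.1 ± 1.12) came first, where the samples of KARS and AARS overlapped. QARS moved from rank 11 to rank 4 of the 40 genes, from 66.2 ± 1.76 to 82.7 ± 1.87 CPM per kb, and MARS from rank 4 to rank 8.

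**Figure D3:**
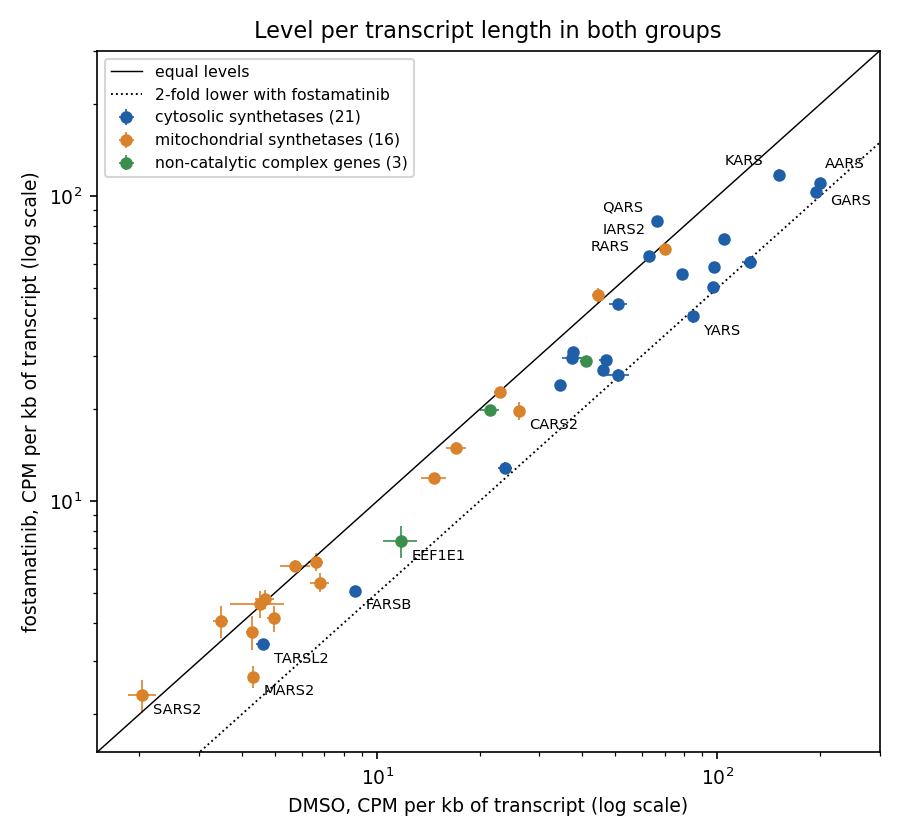
Mean level of the 40 genes per kb of transcript with DMSO (x axis) and with fostamatinib (y axis), both in CPM per kb on log scales, with bars of 1 SD over 3 samples; the solid line marks equal levels and the dotted line a 2-fold lower level. Blue cytosolic genes lie mostly between the lines, with QARS above the solid line, and orange mitochondrial genes mostly near the solid line.

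Across the genes, the level per kb with DMSO and the log2 fold change had a Spearman correlation of -0.27 among the 21 cytosolic genes and of -0.26 among the 16 mitochondrial genes, which is given as a description over genes that share the same libraries. The mitochondrial genes had the larger errors. Their median SE was 0.080 on the log2 scale against 0.044 for the cytosolic genes, and the median of their mean read number in the DMSO samples was 351 against 2397. These SEs were drawn toward the mean-variance trend, so that the gap comes partly from the level of the genes. Without the trend the SE was 0.0725 for MARS2 and 0.119 for SARS2, both smaller, but 0.154 for FARS2, in place of 0.136. A change the size of the cytosolic median of -0.69 exceeded the SE of every mitochondrial gene, the largest of which was 0.170 for SARS2.

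Several members share their locus with other genes. HARS and HARS2 lie head to head on chromosome 5 with starts that overlap by 107 bases, and HARS fell to 82.4% of DMSO while HARS2 stood at 99.1%. AARS starts 44 bases inside DDX19B on the opposite strand, and DDX19B had 483, 567 and 545 reads against 512, 482 and 400 reads (log2 fold change -0.11, SE 0.071, adjusted p = 0.209). WARS lies opposite WDR25, with 45, 47 and 36 reads against 32, 34 and 41 reads (log2 fold change -0.17, SE 0.210). The exons of AIMP2 are overlapped over 29.1% of their length by EIF2AK1 on the opposite strand, a gene that rose (log2 fold change 0.42, SE 0.038), and those of MARS over 5.05% by DDIT3. The library kit kept the strand, but whether the counting used it is not stated, so that reads from such stretches cannot be assigned here. Of the transcript sequence of VARS2 97.3%, of SARS2 77% and of EEF1E1 34.5% is shared, in stretches of 50 bases, with another GENCODE v44 transcript of the same locus. The authors counted with GENCODE v22, and whether it held these transcripts was not checked. The values of these 3 genes may therefore be uncertain, to a degree that is not known.

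The genes around the synthetases were counted from lists of the pathway, again beside 24.5% of all genes lower and 23.3% higher. Of 25 genes of tRNA processing and export 13 fell and none rose in limma or limma-voom, nor did any at an unadjusted p-value under 0.05 (count 0; median log2 fold change -0.24). XPOT, the exportin that carries tRNA out of the nucleus, had 360.2, 352.1 and 362.2 CPM against 166.0, 163.8 and 162.1 CPM (log2 fold change -1.13, SE 0.038, adjusted p = 3.53e-23), a fall the size of that of YARS. TSEN15, a subunit of the tRNA splicing endonuclease, had 30.8, 31.4 and 33.3 CPM against 14.1, 16.2 and 17.4 CPM (log2 fold change -1.01, SE 0.083). In both genes the treated samples were well below the vehicle samples. ELAC2 was called lower with a small change (log2 fold change -0.15, adjusted p = 0.0151). Its call was lost without the mean-variance trend and without DMSO replicate 1, fostamatinib replicate 1 or fostamatinib replicate 3. RTCB, RPP38 and TSEN34, not called here, were called lower in some of the other runs. Of 20 genes of RNA polymerase III and its factors, which transcribe tRNA genes, 8 fell and 2 rose. POLR3G and POLR3GL, alternative forms of the same subunit, went in opposite directions, with log2 fold changes of -0.89 (SE 0.111) and 0.63 (SE 0.123), while POLR3K had -0.63 (SE 0.088) and GTF3C1 0.11 (SE 0.042). The call of GTF3C1 was lost without the mean-variance trend (adjusted p = 0.0765) and without DMSO replicate 1, fostamatinib replicate 1 or fostamatinib replicate 3 (adjusted p of 0.0513, 0.052 and 0.0865), which left 1 gene higher.

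Downstream of charging, 3 of 6 cytosolic elongation factor genes fell and 1 rose. EEF1A1, which delivers charged tRNA to the ribosome and is among the most abundant mRNAs, had a log2 fold change of 0.24 (SE 0.029, adjusted p = 1.62e-08), and its less abundant form EEF1A2, with 4.46, 6.19 and 5.22 CPM against 2.51, 2.77 and 2.15 CPM, had -1.09 (SE 0.186). EIF5A, which eases the joining of difficult amino acids, had -0.44 (SE 0.042). Of 9 mitochondrial translation factor genes 4 fell and 1 rose, with GFM1 (elongation) at -0.47 and MTRF1L (release) at -0.35 against MTIF3 (initiation) at 0.43. Without DMSO replicate 3 GFM2 was called higher too (log2 fold change 0.15, adjusted p = 0.0154). TUFM, with a log2 fold change of -0.09, narrowly missed a call (adjusted p = 0.05005). It was called lower with limma-voom (adjusted p = 0.0434), library size alone, a pseudocount of 2 and the filter of 10 reads. Without DMSO replicate 3 TUFM was called lower as well (adjusted p = 0.018). QRSL1 and GATC, subunits of the enzyme that makes glutaminyl-tRNA in mitochondria by amidation, differed, with log2 fold changes of -0.44 (SE 0.061) and 0.23 (SE 0.072), and GATB and MTFMT were not called. The call of GATC was lost without the mean-variance trend and without DMSO replicate 2 or fostamatinib replicate 2 (adjusted p of 0.0578, 0.0557 and 0.0623), and GATB was called higher without DMSO replicate 2 (log2 fold change 0.22, adjusted p = 0.0327). DTD1 and DTD2, which remove wrongly joined amino acids from tRNA, fell with log2 fold changes of -0.42 and -0.40, and AARSD1 was not called.

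Of 25 genes of the amino acid response 20 fell and 3 rose (median log2 fold change -0.75). ATF4 had 523.0, 520.9 and 494.0 CPM against 324.9, 321.9 and 309.3 CPM (log2 fold change -0.69, SE 0.037, adjusted p = 1.61e-17), a fall close in size to the cytosolic synthetase median. The single cytosolic synthetases ranged from -1.07 to 0.32, and a link with the fall of ATF4 was not tested. Some genes known as ATF4 targets fell further. The log2 fold changes were -4.28 (SE 0.138) for CHAC1, which breaks down glutathione, -3.08 (SE 0.063) for ASNS, the asparagine synthetase, and -1.33 (SE 0.048) for TRIB3. DDIT3 fell less than ATF4 itself, at -0.31 (SE 0.065), as did SESN2 at -0.64 (SE 0.061) and PPP1R15A at -0.41 (SE 0.044). The genes that rose were NUPR1 (1.19, SE 0.257, at 0.95 to 3.12 CPM), EIF2AK1 (0.42, SE 0.038) and ATF5 (0.28, SE 0.056). EIF2AK2 was called lower although its groups overlapped (log2 fold change -0.16, adjusted p = 0.0114). Its call was lost without the mean-variance trend and without DMSO replicate 3 or fostamatinib replicate 1. EIF2AK3, not called here, was called lower without DMSO replicate 1.

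**Figure D4:**
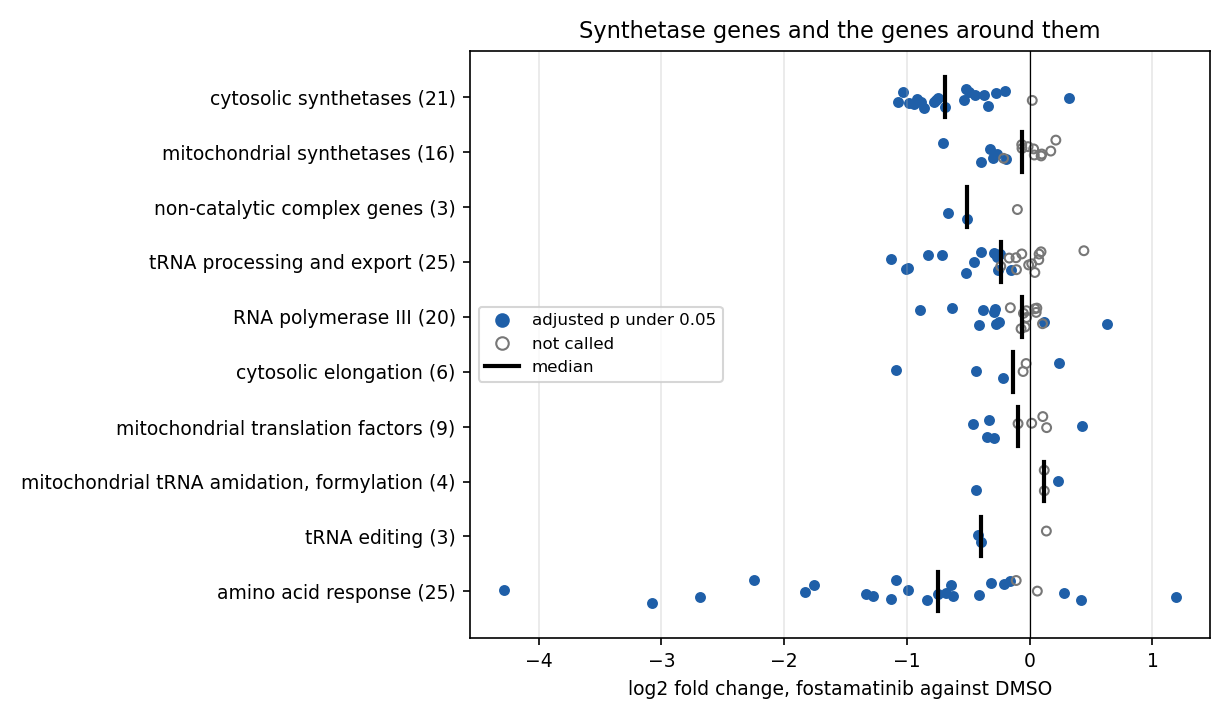
Log2 fold change of fostamatinib against DMSO (x axis) for every gene with values in each list, 1 point per gene spread vertically at random within its list, with the number of genes in brackets; filled points had an adjusted p-value under 0.05, open points were not called, and black bars are list medians. The cytosolic synthetases lie around -0.69 and the mitochondrial synthetases around -0.06, and the amino acid response genes spread from -4.28 to 1.19.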

How the data were processed

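RNA-seq values of 6 samples of Huh7-R cells (3 fostamatinib, 3 DMSO; 2 µM, 24 h) were analysed. For mapping the authors used HISAT and the hg19 genome, and for counting featureCounts and GENCODE v22. Genes under 5 reads in 2 or more of the 3 samples, in both groups, were left out by them before TMM normalization. What they deposited are log2 CPM values with 0.5 added to each count. Sample groups came from the labels. The members and all lists were chosen with earlier results of these data known.

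limma 3.58.1 in R 4.3.3 (lmFit, eBayes with a mean-variance trend) was fitted on the deposited values of 16305 genes, with Benjamini-Hochberg adjustment over all of them and calls at an adjusted p-value under 0.05. The variance of each gene was drawn toward the trend, so that the tests had a median of 33.9 degrees of freedom. The samples alone give 4. Fold changes are on this log2 scale, which understates changes of low genes. Reads recovered from the values (all within 0.05 of a whole number) gave the depth and the alternatives, among them limma-voom, other scalings, a pseudocount of 2, a filter of 10 reads, a replicate block and the omission of each sample. Pair ratios were tested by exact permutation (scipy 1.17.1; Python 3.11.15). Coordinates, overlaps and canonical transcript lengths are from GRCh37, the same build as hg19, with GENCODE v44 lifted to it. Promoter sequences are from RefSeq (GRCh38.p14).

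The values of single samples were given for the 8 cytosolic and 4 mitochondrial genes with the largest fall, the 3 and 4 with the highest log2 fold change, AIMP1, AIMP2, EEF1E1, GARS, KARS, TARSL2 and all genes without a call; FARSA, FARSB, EPRS and IARS were added after their values were seen. From each pathway list, up to 2 called genes per direction were named, and from the amino acid response also ATF4, DDIT3, TRIB3, CHAC1 and ASNS. SESN2, PPP1R15A and ATF5 were added after their values were seen. Some list genes whose calls changed with the processing were also named, after their values were seen, and others were not named.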

Additional observations from a re-analysis of the deposited data

How the results depend on the processing

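With limma-voom, median-ratio size factors, library size alone, a pseudocount of 2, a filter of 10 reads and the replicate block, all 40 genes kept their direction and their call. The scalings moved the median of all genes by less than 0.1. Without the mean-variance trend LARS2 and TARS2 were no longer called (adjusted p of 0.0635 and 0.0778). In this run 39.14% of all genes were called, against 47.8% with the trend. GATC, GTF3C1, ELAC2 and EIF2AK2 also lost their calls (adjusted p of 0.0578, 0.0765, 0.086 and 0.179). The amidation and formylation genes called higher thus went from 1 to 0, and those of RNA polymerase III from 2 to 1. The genes called lower went from 13 to 12 in tRNA processing and export and from 20 to 19 in the amino acid response. Members that kept their call had larger adjusted p-values without the trend. These were 2.82e-04 for AARS and YARS and 0.0443 for DARS, in place of 4.42e-21, 1.21e-20 and 3.09e-04. Equally numbered samples did not deviate together from their group means, with correlations of the deviations of 0.028, -0.019 and 0.013. Whether they were handled in pairs is not stated, and these correlations cannot show it. The replicate block moved the number of genes called from 7794 to 7977, and the cytosolic genes called lower stayed at 19. When each sample was left out in turn, 42.67% to 45.88% of all genes were called. In these runs the cytosolic count stayed at 19 lower and 1 higher, and the cytosolic median log2 fold change ranged from -0.71 to -0.65. The mitochondrial genes called lower ranged from 4 to 7, and those called higher from 0 to 1 (RARS2 or VARS2). The sign turned in 3 genes without a call, with ranges of -0.075 to 0.176 for FARS2, -0.032 to 0.020 for HARS2 and -0.0056 to 0.092 for EARS2. A run without any filter was not made, since the values used here were already filtered. Depth limits the mitochondrial genes most, down to 52 reads for SARS2.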
